A study of Homo sapiens with 49 samples.

Results

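Interferon-stimulated genes were followed in 2 human neuroblastoma cell models, 1 in which MYCN was switched off and 1 in which TWIST1 was knocked down. The set is a fixed list of 42 genes that interferon is known to induce, out of 23621 genes in the deposited expression tables. It was taken by gene name and not by any value in these data. It holds antiviral effectors (the IFIT, IFITM, OAS and MX families), RNA sensors (DDX58, IFIH1, DHX58), the transcription factors of the pathway (IRF1, IRF7, IRF9, STAT2), the ubiquitin-like modifier ISG15 with its protease USP18, and the neighbouring genes PARP9, DTX3L and PARP14. All 42 names were found in both tables. Of these, 26 reached the level needed for testing in the MYCN model and 15 did in the TWIST1 model, with 13 shared between the models and 14 in neither.

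SHEP-21N cells are a neuroblastoma line with a TET-off MYCN gene, which doxycycline at 0.2 µg/ml shuts down. Groups were taken after 2, 4, 6, 8, 16 and 24 h of doxycycline and compared with 0 h (n = 2 libraries at 0 h and 3 at every other time). BE(2)-C cells are another neuroblastoma line, here with a TET-on short hairpin RNA against TWIST1, a transcription factor, which doxycycline at 0.5 µg/ml switches on. Groups were taken after 3, 6, 12, 24 and 48 h and compared with cells without doxycycline (n = 3 each). No group that received doxycycline without the MYCN shutdown or the hairpin was analysed here, so the drug and the change in MYCN or TWIST1 cannot be told apart. No group with added interferon is named in the labels. Nothing in the labels says that the libraries of a group came from separate cultures, so p-values measure the spread between these libraries, which may be technical.

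Type I interferons bind a surface receptor made of IFNAR1 and IFNAR2, whose kinases JAK1 and TYK2 phosphorylate STAT2 within the complex. STAT2 works with IRF9 in the factor ISGF3, which binds the interferon-stimulated response element (ISRE) in the promoters of its targets. Interferon gamma acts at gamma-activated sites (GAS), and the MYC family binds the E-box CACGTG. Many members are also transcribed at a basal level without interferon, through unphosphorylated STAT proteins and IRF factors.

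The promoter windows of 19 members held the ISRE core. RefSeq windows of 300 bases (250 before and 50 after the start site, build GRCh38.p14) were at hand for 33 of the 42. The ISRE core, a pair of GAAA copies with any 2 bases between them, searched on both strands, stood in 57.6% of these windows, against 3.65% of the 27305 windows in the table. The GAS core TTCNNNGAA stood in 8 of 33 (24.2%, against 7.88% of all windows), and the E-box CACGTG in 3 of 33, in IFI30, ISG20 and IRF9 (9.09%, against 7.43%). Matches of 1 motif overlapped each other in IFIH1, ISG15, TRIM21 and BST2, and a GAS match overlapped an ISRE match in BST2, IFI27 and IFITM1. A match describes these letters and shows neither a bound site nor a cause. The 6 windows printed here belong to members that carry the results, and the ISRE core is in capitals. Where the core lies on the opposite strand it reads as a pair of TTTC copies with 2 bases between them.
DTX3L chr3:122564088-122564387 plus strand: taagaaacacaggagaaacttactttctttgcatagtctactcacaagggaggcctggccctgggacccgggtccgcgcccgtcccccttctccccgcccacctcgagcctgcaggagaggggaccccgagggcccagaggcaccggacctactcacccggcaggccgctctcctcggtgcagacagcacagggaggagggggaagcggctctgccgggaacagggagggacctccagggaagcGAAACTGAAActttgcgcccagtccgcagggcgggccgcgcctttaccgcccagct
PARP14 chr3:122680589-122680888 plus strand: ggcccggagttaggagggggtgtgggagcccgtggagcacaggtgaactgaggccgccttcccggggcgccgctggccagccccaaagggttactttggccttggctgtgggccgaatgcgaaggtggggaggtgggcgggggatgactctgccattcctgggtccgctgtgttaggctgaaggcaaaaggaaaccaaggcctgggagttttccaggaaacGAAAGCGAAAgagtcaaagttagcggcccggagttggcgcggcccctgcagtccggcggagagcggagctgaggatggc
IFI44 chr1:78649539-78649838 plus strand: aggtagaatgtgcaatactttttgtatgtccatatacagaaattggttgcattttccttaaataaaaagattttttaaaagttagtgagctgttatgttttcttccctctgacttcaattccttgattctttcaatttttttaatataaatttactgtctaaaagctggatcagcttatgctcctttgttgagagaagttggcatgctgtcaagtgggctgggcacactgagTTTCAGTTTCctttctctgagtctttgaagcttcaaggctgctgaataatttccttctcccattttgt
IFIT1 chr10:89392373-89392672 plus strand: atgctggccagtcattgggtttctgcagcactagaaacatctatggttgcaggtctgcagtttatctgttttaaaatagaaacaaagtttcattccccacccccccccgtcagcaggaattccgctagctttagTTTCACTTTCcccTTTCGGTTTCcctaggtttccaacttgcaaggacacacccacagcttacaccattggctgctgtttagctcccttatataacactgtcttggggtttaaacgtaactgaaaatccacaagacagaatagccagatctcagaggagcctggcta
IFITM3 chr11:320811-321110 minus strand: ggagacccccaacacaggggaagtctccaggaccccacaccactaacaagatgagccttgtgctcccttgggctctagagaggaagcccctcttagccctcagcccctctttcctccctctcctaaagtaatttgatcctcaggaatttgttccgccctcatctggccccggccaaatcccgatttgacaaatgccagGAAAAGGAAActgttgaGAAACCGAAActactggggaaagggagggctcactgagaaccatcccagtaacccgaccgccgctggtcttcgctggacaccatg
OAS3 chr12:112938224-112938523 plus strand: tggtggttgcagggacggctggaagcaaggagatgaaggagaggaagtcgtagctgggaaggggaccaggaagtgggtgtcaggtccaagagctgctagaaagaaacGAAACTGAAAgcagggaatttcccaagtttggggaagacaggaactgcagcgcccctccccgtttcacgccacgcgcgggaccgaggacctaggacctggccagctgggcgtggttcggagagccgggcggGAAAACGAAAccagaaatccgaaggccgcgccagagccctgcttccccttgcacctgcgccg

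IRF9, the DNA-binding partner of STAT2, had no ISRE core in its window. It held a GAS core 63 to 55 bases before the start site and an E-box 71 to 66 bases before it, both in capitals here.
IRF9 chr14:24161015-24161314 plus strand: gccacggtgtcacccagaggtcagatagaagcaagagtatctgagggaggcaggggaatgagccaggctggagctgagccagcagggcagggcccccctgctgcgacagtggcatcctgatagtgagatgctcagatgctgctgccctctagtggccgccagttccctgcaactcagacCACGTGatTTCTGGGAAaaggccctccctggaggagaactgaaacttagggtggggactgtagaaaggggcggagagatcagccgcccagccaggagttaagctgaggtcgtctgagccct

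PARP9 and DTX3L face each other on chromosome 3. PARP9 starts at position 122564784 on the minus strand and DTX3L at position 122564338 on the plus strand, so the 2 genes overlap head to head over the 446 bases between their start sites. The window of PARP9 held none of the 3 motifs, while that of DTX3L held an ISRE core from 6 bases before to 4 bases after its start site. The protein products form a complex, the E3 ubiquitin ligase DTX3L and the ADP-ribosyltransferase-related PARP9, and PARP14 lies on the same chromosome with only PARP15 between it and DTX3L. Libraries were stranded, but no source used here says whether counting used the strand, so reads from the overlap may not be told apart between the pair.

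Checks of the libraries came first. MYCN, the targeted gene of SHEP-21N, stood at 17.3, 13.9 and 11.2 FPKM (fragments per kilobase of transcript, scaled to the library's mapped fragments) on the spike-in scale at 24 h, against 723 and 855 FPKM at 0 h, and TWIST1 in BE(2)-C at 7.65, 11.2 and 4.60 FPKM at 48 h, against 91.8, 70.3 and 82.0 FPKM without doxycycline. The authors deposited each table both unnormalised and rescaled to spike-in RNA added per cell number, and the rescaling moved whole libraries. The median change of all tested genes at 24 h in SHEP-21N was -0.31 on the log2 scale after rescaling and -0.04 before it, and in BE(2)-C at 48 h it was -1.36 after and 0.02 before. In BE(2)-C the library without doxycycline numbered 1 stood apart from the other two. Its unnormalised OAS3 level was 14.7 FPKM, against 24.2 and 23.5 FPKM in the others, and its SAMHD1 level was 9.89 FPKM, against 15.6 and 16.4 FPKM. The labelled cell types matched their markers in part. SHEP-21N held the mesenchymal markers VIM (385 to 516 FPKM, unnormalised) and PRRX1 (24.7 to 49.4 FPKM), with PHOX2A at or under 0.0326 FPKM, although HAND2 stood at 32.1 to 45.4 FPKM. BE(2)-C held PHOX2A (166 to 264 FPKM) and HAND2 (145 to 243 FPKM), with PRRX1 at or under 0.0327 FPKM. The mesenchymal markers VIM, at 69.0 to 102 FPKM, and SNAI2, at 1.58 to 3.31 FPKM, were present there as well. Of the blood and endothelial markers in BE(2)-C, PTPRC stayed at or under 0.0349 FPKM and CDH5 ran from 0.543 to 1.65 FPKM, while HBB reached 38.4 FPKM in 1 library at 3 h, and in SHEP-21N CDH5 stayed at or under 0.0618 FPKM.

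The basal levels of the members differed widely between genes and between models. Levels here are unnormalised FPKM, which are per transcript length, and are set side by side without a test because the tables of the models were scaled separately. In SHEP-21N the set was led by the membrane proteins that block virus entry. IFITM3 averaged 509 FPKM over the 20 libraries (range 364 to 677), LGALS3BP, a secreted glycoprotein, 311 FPKM (236 to 399), IFITM2 189 FPKM (136 to 238) and IFITM1 76.5 FPKM (51.1 to 101). Next came IFI16, a nuclear DNA sensor, with 28.3 FPKM (24.2 to 33.5), followed by ISG15 with 22.6 FPKM and IFI6, an antiviral membrane protein, with 16.4 FPKM. The 3 IFITM genes are neighbours of similar sequence, so reads may have been split between them and their separate levels are uncertain.

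In BE(2)-C the IFITM genes were close to 0. IFITM3 averaged 0.0975 FPKM and was listed at 0 in 8 of 18 libraries, IFITM1 averaged 0.0336 FPKM and was listed at 0 in 13 of 18, and IFITM2 averaged 0.242 FPKM. LGALS3BP led this model with 256 FPKM (range 214 to 324 over 18 libraries). It was followed by OAS3, which makes the 2'-5' oligoadenylate that activates RNase L, with 22.7 FPKM (14.7 to 24.8), IFIT5, which binds RNA ends, with 15.2 FPKM (11.1 to 17.2), SAMHD1, a dNTP hydrolase that restricts viruses, with 14.6 FPKM (9.89 to 16.4), and IFI6 with 11.7 FPKM (9.29 to 16.2).

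The models also differed in which member of a family they held. OAS1 averaged 7.01 FPKM in BE(2)-C and 0.0677 FPKM in SHEP-21N, while OAS3 was above 1 FPKM in both. IFI44, a cytoplasmic protein of the antiviral response, averaged 1.78 FPKM in SHEP-21N, and in BE(2)-C it was listed at 0 in 15 of 18 libraries. USP18, which removes ISG15 and damps receptor signalling, averaged 7.08 FPKM in SHEP-21N and 0.111 FPKM in BE(2)-C. Some members, named here for their low level, were near 0 in both models. MX1, MX2, OAS2, DHX58, XAF1 and RSAD2 stayed under 0.2 FPKM in every one of the 38 libraries, and OAS2 and XAF1 were listed at 0 in all 20 SHEP-21N libraries. Other untested members were detected at low levels in every SHEP-21N library, among them IFI44L (0.704 to 1.35 FPKM), CMPK2 (0.521 to 1.25 FPKM) and TRIM22 (0.246 to 0.506 FPKM). The members together made up 0.116 to 0.194% of all FPKM in SHEP-21N libraries and 0.0400 to 0.0546% in BE(2)-C libraries, and IFITM1, IFITM2, IFITM3 and LGALS3BP together held 83.5 to 90.5% of that sum in SHEP-21N and 69.9 to 78.9% in BE(2)-C.

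**Figure D1:**
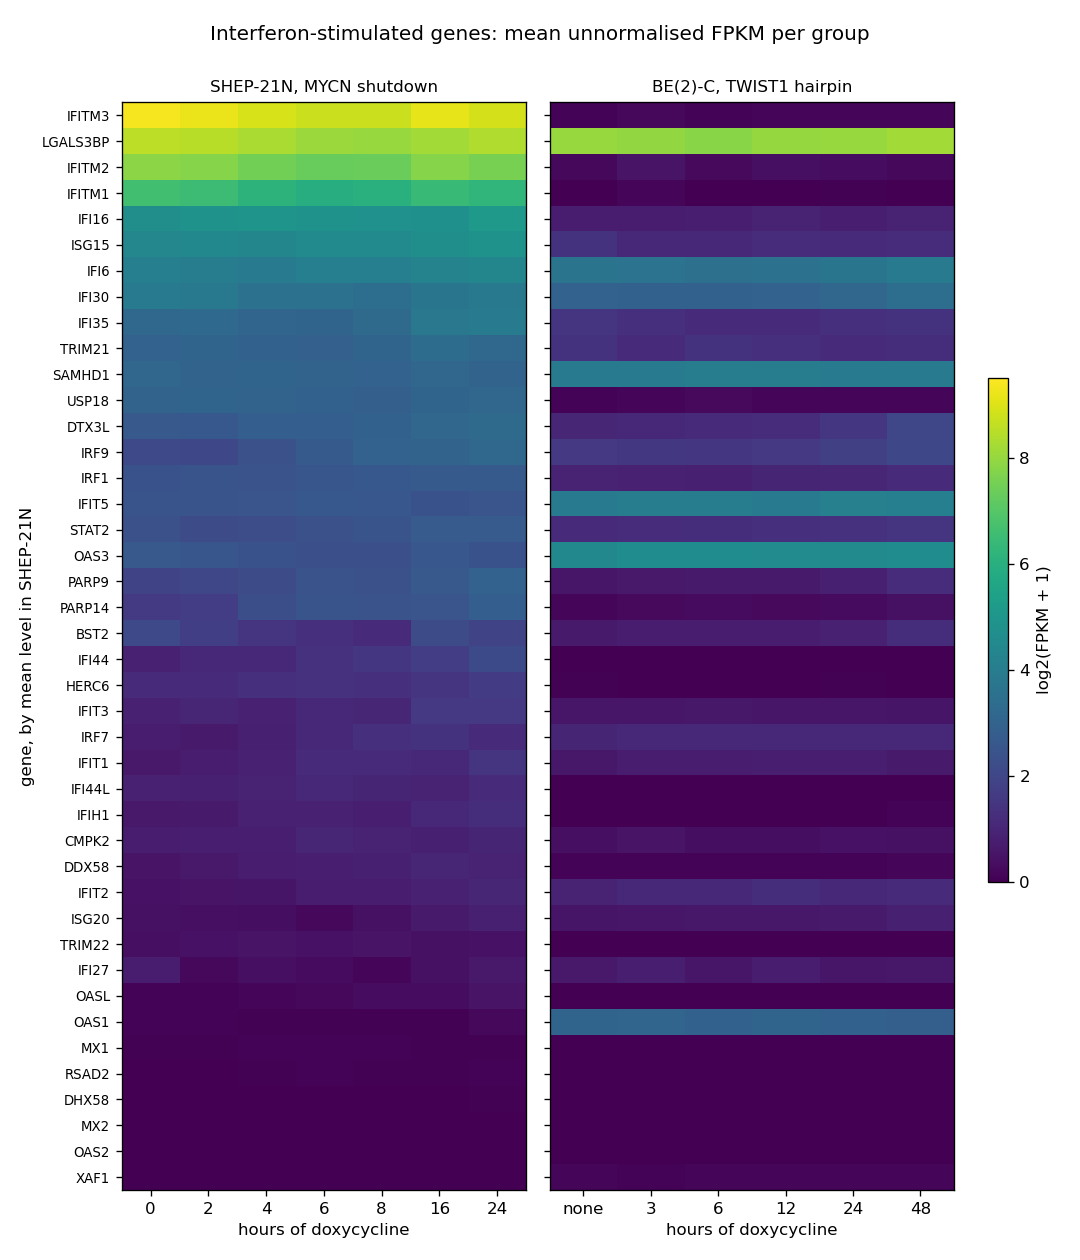
Mean unnormalised FPKM of the 42 members (rows) in each group (columns) of SHEP-21N and BE(2)-C, on a log colour scale. IFITM1, IFITM2 and IFITM3 are high in SHEP-21N and near 0 in BE(2)-C, OAS1 shows the opposite, and MX1, MX2, OAS2, DHX58, XAF1 and RSAD2 are near 0 throughout.

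After MYCN shutdown in SHEP-21N, a small group of members rose and a different small group fell. IFI44, PARP9, PARP14, IRF9 and IFIT1 were higher at 24 h, and IFITM3, IFITM1 and OAS3 were lower, in limma at adjusted p under 0.05 over all 11867 tested genes. That is 5 of 26 tested members higher, where 6.16% of all tested genes were higher, and 3 of 26 lower, where 32.4% of all tested genes were lower. The median change of the 26 members was 0.06 on the log2(rescaled FPKM + 1) scale, and that of all tested genes -0.31. In bulk RNA a smaller number of expressing cells and less RNA per cell cannot be told apart. All comparisons with 0 h share the same 2 control libraries. Beside these calls, the summed unnormalised level of the 8 blood and immune markers was 8.85 to 9.80 FPKM at 24 h and 5.77 to 6.57 FPKM at 0 h. Most of it was CD68 (4.72 to 9.48 FPKM over all libraries), while PTPRC, which marks white blood cells, was at or under 0.0153 FPKM and CD3E was listed at 0. The summed unnormalised level of the 9 adrenergic markers was 42.6 to 45.4 FPKM at 24 h and 60.7 to 64.8 FPKM at 0 h, and the 3 that were tested, HAND2, GATA2 and ISL1, were lower in limma. The 9 mesenchymal markers summed to 830 to 877 FPKM at 24 h and 741 to 776 FPKM at 0 h, with PRRX1 higher (0.55) and TWIST2 lower (-0.68) on the rescaled scale. The part of these marker lists in the members' calls was not tested.

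IFI44 was higher at each later sampling time on average. Its rescaled levels were 0.923 and 1.16 FPKM at 0 h, 1.41, 1.20 and 1.27 at 2 h, 1.41, 1.34 and 1.36 at 4 h, 1.70, 1.41 and 1.67 at 6 h, 1.92, 2.31 and 1.89 at 8 h, 2.32, 2.74 and 2.81 at 16 h, and 3.52, 2.80 and 2.57 FPKM at 24 h. Every library with doxycycline lay above both 0 h libraries, and the 16 and 24 h libraries lay above all those up to 8 h. IFI44 averaged 2.96 ± 0.49 FPKM at 24 h (SD, n = 3) and 1.04 ± 0.17 FPKM at 0 h (SD, n = 2). The log2 change was 0.95 (SE 0.13, limma adjusted p = 0.00012), and the gene had already passed with 0.57 at 8 h (adjusted p = 0.0137) and 0.83 at 16 h (0.0013). The 24 and 16 h calls held without any 1 of the 20 libraries, but the 8 h call was lost without 0 h library number 1 (adjusted p = 0.107) or number 2 (0.112).

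PARP14, an ADP-ribosyltransferase, passed first at 6 h. Its rescaled levels were 2.77 and 1.95 FPKM at 0 h, 2.48, 2.90 and 2.31 at 2 h, 4.03, 5.14 and 3.52 at 4 h, 4.17, 3.40 and 5.81 at 6 h, 5.27, 4.50 and 4.37 at 8 h, 4.41, 5.77 and 5.48 at 16 h, and 6.50, 5.08 and 4.92 FPKM at 24 h. From 4 h on every library lay above both 0 h libraries. Its log2 changes that passed were 0.69 at 6 h, 0.77 at 8 h, 0.89 at 16 h and 0.95 at 24 h (SE 0.18, limma adjusted p = 0.00114 at 24 h). The 24 h call held without any 1 of the 20 libraries, with a highest adjusted p of 0.0475, whereas the earlier calls were lost without 0 h library number 2 (0.43 for 6 h, 0.351 for 8 h and 0.195 for 16 h as adjusted p). The 6 h call was also lost without 0 h library number 1 (0.0513) and 6 h libraries number 0 (0.0512) and 2 (0.146), and the 8 h call without 8 h library number 0 (0.0779).

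PARP9 passed first at 16 h. Its rescaled levels were 3.46 and 3.09 FPKM at 0 h, 3.38, 3.46 and 3.24 at 2 h, 3.61, 3.79 and 4.14 at 4 h, 4.39, 4.03 and 4.66 at 6 h, 4.82, 4.49 and 3.98 at 8 h, 4.69, 6.38 and 6.57 at 16 h, and 7.23, 6.17 and 5.01 FPKM at 24 h. The 24 h libraries all lay above those of 0 to 8 h, and the 2 h libraries overlapped those of 0 h. The log2 change was 0.68 at 16 h (limma adjusted p = 0.00834) and 0.73 at 24 h (SE 0.14, adjusted p = 0.00132). The 16 h call was lost without 0 h library number 2 (adjusted p = 0.168), and the 24 h call held without any 1 library, with a highest adjusted p of 0.0384. Its head-to-head partner DTX3L had 9.54, 7.67 and 6.30 FPKM at 24 h, against 6.14 and 5.53 FPKM at 0 h. These groups did not overlap, but the log2 change of 0.36 did not pass (95% interval 0.02 to 0.69, limma adjusted p = 0.0844).

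IRF9 was as high on average at 8 h as at 24 h. Its rescaled levels were 3.42 and 4.14 FPKM at 0 h, 4.43, 3.11 and 2.92 at 2 h, 3.90, 4.23 and 5.56 at 4 h, 5.75, 5.89 and 4.72 at 6 h, 8.86, 7.77 and 5.93 at 8 h, 6.58, 9.03 and 7.83 at 16 h, and 9.71, 7.03 and 5.88 FPKM at 24 h. The libraries of 8, 16 and 24 h overlapped one another and all lay above those of 0 h. In limma the log2 change was 0.82 at 8 h, with adjusted p = 0.0213. It was 0.88 at 16 h, with 0.0134 as the adjusted p, and 0.82 at 24 h, with SE 0.20 and adjusted p = 0.00568. Between 24 and 8 h the difference was -0.01 (95% interval -0.39 to 0.37). The 24 h call was lost without 0 h library number 1 (adjusted p = 0.0506), the 16 h call without either 0 h library (adjusted p = 0.114 and 0.104), and the 8 h call without either 0 h library (0.133 and 0.17) or 8 h libraries number 0 (0.0957) and 1 (0.056).

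IFIT1, which binds viral RNA lacking a proper cap, had rescaled levels of 2.03, 1.53 and 1.18 FPKM at 24 h, against 0.687 and 0.764 FPKM at 0 h. The groups did not overlap, and the log2 change was 0.57 (SE 0.15, limma adjusted p = 0.00795). The call was lost without 0 h library number 2 (adjusted p = 0.0632). IFIT3, a partner of IFIT1, had 1.70, 2.59 and 2.71 FPKM at 16 h, against 1.25 and 0.802 FPKM at 0 h, and passed at 16 h alone among the times tested (0.71, limma adjusted p = 0.0239). IRF7, the factor that amplifies interferon production, likewise passed at 16 h alone, with 1.47, 2.29 and 1.91 FPKM, against 0.819 and 0.898 FPKM at 0 h (0.63, limma adjusted p = 0.0375). At 24 h these were at 2.41, 1.44 and 1.55 FPKM for IFIT3 (0.46, limma adjusted p = 0.0560) and at 1.53, 0.975 and 0.786 FPKM for IRF7, which overlapped the 0 h libraries. Each 16 h call held in only 1 of the 5 omissions of a 0 or 16 h library, with limma adjusted p of up to 0.346 for IFIT3 and 0.255 for IRF7.

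**Figure D2:**
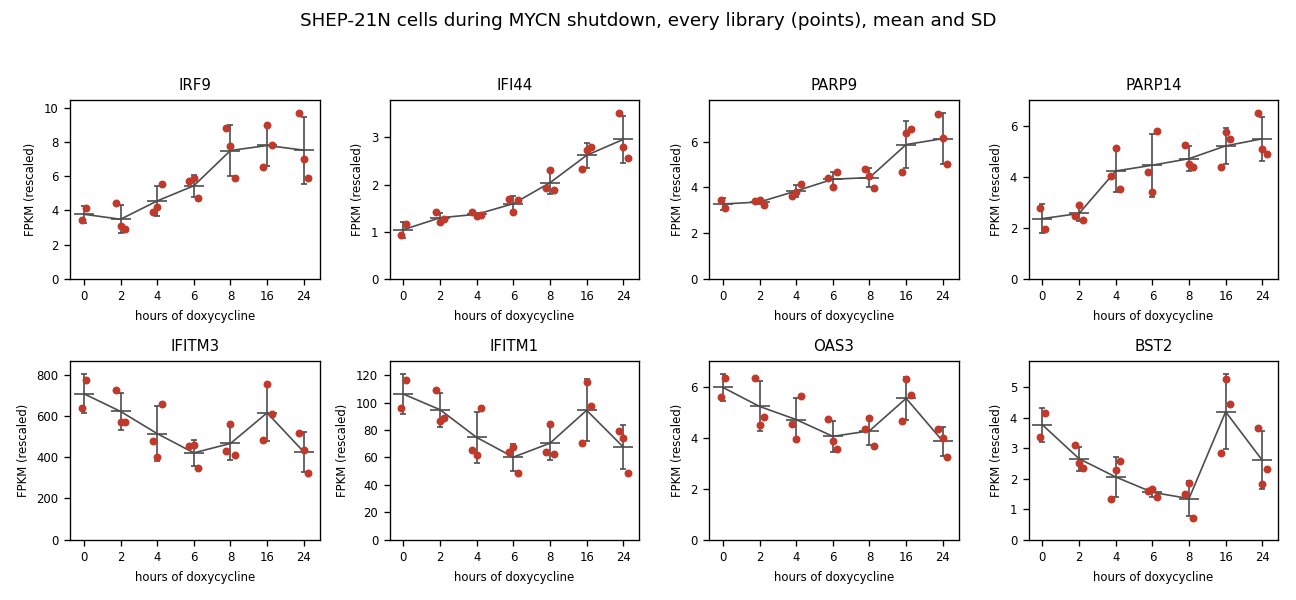
Rescaled FPKM of 8 members in each SHEP-21N library (points) by hours of doxycycline, from 0 to 24 h, with lines through the group means and bars for the SD. IFI44, PARP14, PARP9 and IRF9 lie above both 0 h libraries at 24 h, IFITM3, IFITM1 and OAS3 lie below them, and BST2 is lowest at 8 h.

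Of the 3 members that fell, IFITM3 and IFITM1 were among the 4 most abundant in SHEP-21N. IFITM3 had rescaled levels of 517, 436 and 325 FPKM at 24 h, against 641 and 775 FPKM at 0 h, and IFITM1 had 79.5, 74.3 and 48.9 FPKM at 24 h, against 95.9 and 116 FPKM at 0 h. In neither gene did the 24 and 0 h libraries overlap. The log2 changes were -0.75 for IFITM3 (SE 0.25, limma adjusted p = 0.0266) and -0.67 for IFITM1 (SE 0.25, adjusted p = 0.0456). IFITM2 had 207, 176 and 123 FPKM at 24 h, against 226 and 274 FPKM at 0 h, with a log2 change of -0.59 (adjusted p = 0.081) that did not pass. OAS3 had 4.35, 4.00 and 3.23 FPKM at 24 h, against 5.60 and 6.33 FPKM at 0 h, a log2 change of -0.52 (SE 0.17, limma adjusted p = 0.0209). Relative to the all-gene median of -0.31, the change of IFITM3 was -0.44, that of IFITM1 -0.36 and that of OAS3 -0.22.

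These falls were fragile to single libraries. Without 0 h library number 2 none of the 3 passed in limma, with adjusted p = 0.227 for IFITM3 and 0.191 for OAS3. The IFITM3 call was also lost without 24 h library number 1 (limma adjusted p = 0.0503) or number 2 (0.11). Without 24 h library number 2 the OAS3 call was lost as well (limma adjusted p = 0.0833). The IFITM1 call held in 9 of the 20 omissions, but in only 1 of the 5 that removed a 0 or 24 h library. On the unnormalised scale the same direction stood at 24 h, with log2 changes of -0.48 for IFITM3, -0.39 for IFITM1, -0.32 for IFITM2 and -0.25 for OAS3. LGALS3BP had 347, 310 and 243 FPKM at 24 h, against 361 and 458 FPKM at 0 h, a log2 change of -0.45 that did not pass (limma adjusted p = 0.13). IFI16 stood at 36.4, 30.0 and 23.7 FPKM at 24 h, against 26.8 and 28.3 FPKM at 0 h, and the groups overlapped.

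BST2, which tethers budding viruses to the cell, dipped in the middle of the course. Its rescaled levels were 3.38 and 4.16 FPKM at 0 h, 3.11, 2.51 and 2.36 at 2 h, 1.33, 2.28 and 2.57 at 4 h, 1.60, 1.67 and 1.40 at 6 h, 1.49, 1.85 and 0.703 at 8 h, 2.86, 5.29 and 4.46 at 16 h, and 3.67, 1.83 and 2.32 FPKM at 24 h. In limma it passed as lower at 6 h (log2 change -0.90, adjusted p = 0.0292) and at 8 h (-1.05, 0.0176) and overlapped 0 h at 16 and 24 h. Of the 5 omissions of a library from the groups compared, the 6 h call held in 1 and the 8 h call in 2 (limma adjusted p up to 0.383 at 6 h and 0.279 at 8 h). IFITM1 passed as lower at 6 h as well (-0.82, limma adjusted p = 0.048), which held in 7 of 20 omissions. It held in 0 of the 5 that removed a 0 or 6 h library. The summed unnormalised level of IFITM1, IFITM2, IFITM3 and LGALS3BP was also lower at 6 h (787 to 978 FPKM) and 8 h (849 to 974 FPKM). It was 1316 and 1415 FPKM at 0 h, 1126 to 1201 FPKM at 16 h and 1035 to 1114 FPKM at 24 h. The 6 h libraries carry index sequences of their own, while those of 8, 16 and 24 h repeat those of 0, 2 and 4 h. Libraries with the same index cannot share a pool, so those of 8, 16 and 24 h cannot all have been pooled with those of 0, 2 and 4 h, and pool and time cannot be told apart.

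Counted over the whole course, the rises gathered slowly. At 2 h and at 4 h no member passed in limma, where 0.0506% and 0.0843% of all tested genes did, and 0 and 2 members had an unadjusted p under 0.05. At 6 h 1 member was higher (3.17% of all tested genes) and 2 were lower (7.54%). At 8 h 3 were higher (3.92%) and 1 was lower (3.83%), and at 16 h 6 were higher (5.13%) and 0 lower (3.04%). The 16 h median over the 26 members was 0.30, against -0.03 over all tested genes. Between 24 and 8 h, whose libraries could share 1 pool, no member passed, where 1.56% of all genes did in either direction, and 3 members had an unadjusted p under 0.05. For none of these comparisons was the share of all tested genes with an unadjusted p under 0.05 counted, so these member counts have no background.

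On the unnormalised scale more members passed at 24 h. There 15 of 26 were higher (28.9% of all tested genes) and 4 were lower (36.4%), with a median over members of 0.34, against -0.04 over all tested genes. The largest log2 changes were again those of PARP14 (1.24), IFI44 (1.24), IRF9 (1.11) and PARP9 (1.02), followed by IFIT1 (0.81), IFI35 (0.74), IFIT3 (0.71) and DTX3L (0.64). HERC6, a HECT-type ubiquitin ligase, ISG15, IFI16, STAT2, IRF7, IRF1 and IFI6 made up the rest, with 0.26 to 0.49. Between 24 and 8 h on that scale 15 members were higher (12.9% of all tested genes) and 0 lower (19.2%), with a median of 0.27, against -0.03. Of the members under the level for testing, IFIH1, an RNA sensor, had unnormalised means of 1.40 FPKM at 24 h and 0.561 FPKM at 0 h, and OASL, an oligoadenylate synthetase-like protein, 0.406 FPKM at 24 h and 0.0756 FPKM at 0 h. When low genes were not left out, IFIH1 (0.39), IFIT2 (0.36) and OASL (0.29) passed as higher at 24 h as well.

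ISG15, STAT2, IRF1 and USP18 gave no call at 24 h on the rescaled scale, while ISG15, STAT2 and IRF1 passed as higher on the unnormalised scale. ISG15 averaged 24.8 ± 5.2 FPKM at 24 h (SD, n = 3) and 22.3 ± 2.1 FPKM at 0 h (SD, n = 2), with a log2 change of 0.13 (95% interval -0.34 to 0.60). STAT2, the partner of IRF9, had a log2 change of 0.08 (95% interval -0.25 to 0.42), IRF1, a factor induced by interferon gamma, 0.03 (-0.34 to 0.41), and USP18 -0.20 (-0.62 to 0.22). These intervals exclude the rise seen for IFI44. IFI35, a partner of NMI, had 12.8 FPKM at 24 h and 8.91 FPKM at 0 h, with libraries that did not overlap and a log2 change of 0.45 that did not pass (limma adjusted p = 0.0945). Of the other tested members without a call at 24 h, IFI30, a lysosomal thiol reductase (-0.35), SAMHD1 (-0.39), IFIT5 (-0.25), HERC6 (0.24), TRIM21, a cytosolic antibody receptor (-0.11), and IFI6 (-0.02) had the log2 changes given.

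Genes upstream of the members were tested at 24 h in SHEP-21N in the same way. Of the JAK-STAT list of 10 genes 8 were tested. On the rescaled scale 2 rose, where 6.16% of all tested genes were higher, and 1 fell in limma, where 32.4% were lower. On the unnormalised scale 4 were higher (28.9% of all tested genes) and 2 lower (36.4%). SOCS1, the feedback inhibitor of JAK kinases, had rescaled levels of 5.37, 5.30 and 3.52 FPKM at 24 h, against 1.76 and 1.76 FPKM at 0 h, and rose by 1.04 on the log2 scale (adjusted p = 0.00171), a call held without any 1 library. The kinase JAK1 averaged 44.8 FPKM at 24 h and 30.3 FPKM at 0 h (0.53, limma adjusted p = 0.0362), and the kinase TYK2 15.1 FPKM at 24 h and 25.6 FPKM at 0 h (-0.72, adjusted p = 0.0101). The JAK1 call held in 16 of 20 omissions, but in only 1 of the 5 that removed a 0 or 24 h library. The TYK2 call was lost without 0 h library number 2 (limma adjusted p = 0.164).

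Of 14 listed sensors of nucleic acids and their adaptors, which can start interferon production, 11 were tested. On the rescaled scale 1 rose, where 6.16% of all tested genes were higher, and 3 fell in limma, where 32.4% were lower. On the unnormalised scale 4 were higher (28.9% of all tested genes) and 3 lower (36.4%). TLR3, the endosomal receptor for double-stranded RNA, had 2.44, 2.11 and 1.97 FPKM at 24 h, against 1.09 and 1.03 FPKM at 0 h (0.62, adjusted p = 0.00702), but the call was lost without 0 h library number 2 (adjusted p = 0.0808). IRF3, the factor that switches on interferon beta, fell (-0.87, limma adjusted p = 0.0092), as did the adaptors TRAF3 (-0.70, adjusted p = 0.00924) and TICAM1 (-0.56, adjusted p = 0.0369), and without 0 h library number 2 IRF3 and TRAF3 did not pass (adjusted p = 0.134 and 0.132). The TICAM1 call was lost without 0 h library number 1 (limma adjusted p = 0.0655) or number 2 (0.261) and without 24 h library number 1 (0.0799) or number 2 (0.144). The DNA sensor MB21D1 (cGAS) stayed at or under 0.0557 FPKM in SHEP-21N, unnormalised, while its adaptor TMEM173 (STING) ran from 6.44 to 16.1 FPKM. In BE(2)-C MB21D1 ran from 0.216 to 0.497 FPKM, TMEM173 from 0.168 to 0.465 FPKM and TLR3 stayed at or under 0.0153 FPKM.

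Of 38 other interferon-induced genes 29 were tested, and EIF2AK2 and ADAR among them are also in the list of sensors. At 24 h on the rescaled scale 6 rose, where 6.16% of all tested genes were higher, and 3 fell in limma, where 32.4% were lower. On the unnormalised scale 17 were higher (28.9% of all tested genes) and 3 lower (36.4%). SAMD9 (0.87), an antiviral factor, TDRD7 (0.82), SP100 (0.69), a nuclear body protein, APOL6 (0.62), GBP2 (0.62), a guanylate-binding protein, and DDX60L (0.43) rose. TRIM14 (-0.95), TRIM25 (-0.83), the ligase for the RNA sensor DDX58, and LAP3 (-0.60) fell. The calls of TDRD7 and APOL6 held without any 1 library, and those of SAMD9, GBP2, TRIM25 and TRIM14 were lost without 0 h library number 2. SP100 was lost without either 0 h library. The DDX60L call held in 8 of 20 omissions, but in only 1 of the 5 that removed a 0 or 24 h library, with adjusted p in limma of up to 0.317. The LAP3 call held in 16 of 20, and was lost without 0 h library number 1 (limma adjusted p = 0.0679) or number 2 (0.23) and without 24 h library number 1 (0.054) or number 2 (0.148). The 18 listed names of interferon ligands and receptors stood for 14 genes, since IL29, IL28A, IL28B and IL28RA are other names of listed genes. All 14 were in the tables and 5 were tested. None passed in limma on the rescaled scale, where IFNGR2 (-0.48) and IL10RB (0.41) had an unadjusted p under 0.05. On the unnormalised scale 3 were higher (28.9% of all tested genes) and 1 lower (36.4%). IFNAR1 averaged 6.75 FPKM at 24 h and 5.66 FPKM at 0 h, and IFNAR2 7.47 FPKM at 24 h and 9.25 FPKM at 0 h. IFNG and the lambda interferons IFNL1, IFNL2 and IFNL3 were listed at 0 in every SHEP-21N library, and IFNB1 reached at most 0.0546 FPKM, unnormalised. IFNE, an epithelial interferon, averaged 0.819 FPKM at 24 h and 0.287 FPKM at 0 h, unnormalised and under the level for testing, and was listed at 0 in BE(2)-C.

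**Figure D3:**
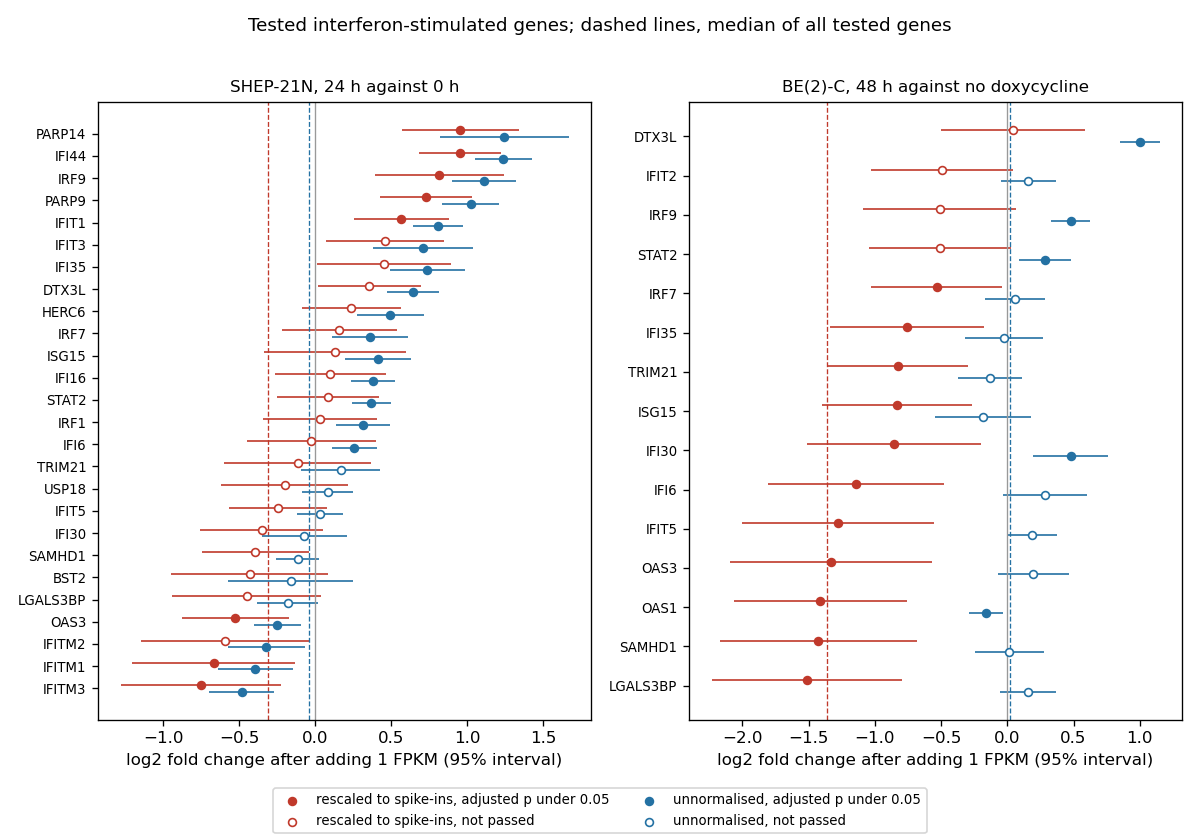
Log2 change with its 95% interval of every tested member, SHEP-21N at 24 h against 0 h and BE(2)-C at 48 h against no doxycycline, on the rescaled scale (red) and the unnormalised scale (blue), with dashed lines at the all-gene medians. IFI44, PARP14, IRF9 and PARP9 lie right of both medians in SHEP-21N, and in BE(2)-C DTX3L lies farthest right of the medians on both scales.

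In BE(2)-C with the TWIST1 hairpin most tested members were lower at 48 h on the spike-in scale, as nearly all genes were, while DTX3L averaged 1.49 FPKM at 48 h and 1.41 FPKM without doxycycline. On the rescaled scale no member passed at 3, 6, 12 or 24 h in limma, where 0.035%, 0.035%, 0.0437% and 0.604% of all 11433 tested genes did, and no member had an unadjusted p under 0.05 at those times. The share of all tested genes under that unadjusted p was not counted. At 48 h 11 of 15 tested members were lower, where 93.3% of all tested genes were lower, and 0 were higher, where 0.131% were. The count of lower members is not above that background. The median change of the 15 members was -0.83, against -1.36 over all tested genes, and -0.57 between 48 and 24 h, against -1.16. Between 48 and 24 h 7 members were lower, where 92.3% of all tested genes were, and 0 were higher, where 0.122% were. Without the control library that stood apart, 13 members were lower. Beside these falls, the unnormalised spike-in totals were 57913 to 140361 FPKM at 48 h and 15455 to 54501 FPKM in the other groups, and the part of the spike-in amount in the result was not tested.

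The largest rescaled falls among members were those of LGALS3BP, SAMHD1 and OAS1. LGALS3BP had 111, 168 and 78.7 FPKM at 48 h, against 383, 305 and 298 FPKM without doxycycline (-1.51, SE 0.35, limma adjusted p = 0.000403). OAS1 had 2.72, 4.34 and 1.73 FPKM at 48 h, against 10.5, 7.15 and 9.97 FPKM without doxycycline (-1.41, adjusted p = 0.00032), and SAMHD1 5.76, 8.71 and 3.71 FPKM at 48 h, against 24.6, 9.18 and 22.1 FPKM without (-1.43, adjusted p = 0.000862). In none of these 3 genes did the groups overlap. Nor did the library medians of all tested genes (log2 values of 2.09 to 3.15 at 48 h, against 3.57 to 4.37 without doxycycline). The share of all tested genes without overlap was not counted. OAS3 had 9.57, 13.9 and 6.45 FPKM at 48 h, against 38.2, 13.7 and 31.4 FPKM without doxycycline (-1.33, adjusted p = 0.0019), where the groups overlapped through library number 1 of the controls. IFIT5 had 6.51, 10.3 and 4.20 FPKM at 48 h, against 25.3, 10.3 and 20.2 FPKM (-1.28), and IFI6 5.85, 9.35 and 3.59 FPKM, against 14.6, 15.0 and 13.0 FPKM (-1.14). In both genes the groups did not overlap, though for IFIT5 control library number 1 lay only just above the highest 48 h library.

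The other 5 members lower at 48 h in limma were IFI30, ISG15, TRIM21, IFI35 and IRF7. IFI30 had 4.12, 6.89 and 2.45 FPKM at 48 h, against 10.3, 8.18 and 6.96 FPKM without doxycycline (-0.86). ISG15, one of the most inducible members in other systems, had 0.711, 1.05 and 0.348 FPKM at 48 h, against 2.66, 1.99 and 1.45 FPKM without doxycycline (-0.83). In none of the 5 genes did the groups overlap, and neither did the library medians of all tested genes. TRIM21 had 0.589, 1.03 and 0.502 FPKM at 48 h, against 2.35, 2.12 and 1.58 FPKM (-0.83), IFI35 had 0.770, 1.26 and 0.494 FPKM, against 2.01, 2.07 and 2.13 FPKM (-0.76), and IRF7 had 0.613, 0.736 and 0.376 FPKM, against 1.23, 1.42 and 1.16 FPKM (-0.53). The last 4 genes lie near the 1 FPKM added before taking logs, which shrinks their changes.

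Relative to the all-gene median the changes of the more abundant members were small. The change of LGALS3BP relative to the median was -0.15, that of SAMHD1 -0.06, that of OAS1 -0.05, that of OAS3 0.03 and that of IFI6 0.22. On the unnormalised scale 4 members were higher at 48 h (18.1% of all tested genes) and 1 was lower (21.3%), with a median over members of 0.16, against 0.02. The 1 member lower on that scale was OAS1, with 6.41, 6.54 and 6.26 FPKM at 48 h, against 6.75, 7.71 and 7.36 FPKM without doxycycline (-0.16). The calls of IFI30, IFI35 and IRF7 on the rescaled scale were lost without single libraries, IFI30 without library number 0 of the controls (limma adjusted p = 0.0652) or 48 h library number 2 (0.113), IFI35 without that same 48 h library (0.0757), and IRF7 in 7 of 18 omissions. The IRF7 call held in only 1 of the 6 omissions of a 48 h or control library.

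DTX3L overlapped between the groups on the rescaled scale, with 1.43, 2.10 and 0.956 FPKM at 48 h, against 1.93, 0.918 and 1.39 FPKM without doxycycline. The log2 change was 0.04 (95% interval -0.50 to 0.58), which relative to the median was 1.41. Adding 1 FPKM before taking logs shrinks the change of low genes such as this one, so part of the distance to the median comes from the scale. Unnormalised, DTX3L had 3.13, 2.98 and 3.07 FPKM at 48 h, against 1.25, 0.843 and 1.02 FPKM without doxycycline, and rose by 1.00 on the log2 scale (SE 0.07, limma adjusted p = 4.54e-08). All 3 libraries at 48 h lay above the 24 h libraries (1.84, 1.83 and 1.91 FPKM), and these above the controls. At 24 h on that scale DTX3L (0.49) and IRF9 (0.23) were the 2 members that passed as higher, where 9.55% of all tested genes did. Its neighbours were under the level for testing in this model. PARP9 had 1.38, 1.29 and 1.27 FPKM at 48 h, against 0.581, 0.328 and 0.519 FPKM without doxycycline, and PARP14 had 0.395, 0.292 and 0.296 FPKM, against 0.163, 0.0762 and 0.119 FPKM. In both genes the groups did not overlap on the unnormalised scale.

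IRF9 in BE(2)-C was also higher on the unnormalised scale, with 3.09, 3.18 and 3.16 FPKM at 48 h, against 2.09, 1.97 and 1.86 FPKM without doxycycline (0.48). On the rescaled scale its change of -0.51 did not pass (95% interval -1.09 to 0.07, limma adjusted p = 0.0855). IFI30 (0.48) and STAT2 (0.28) were the other members higher on the unnormalised scale at 48 h. STAT2 did not pass on the rescaled scale (-0.51), and neither did IFIT2 (-0.49), an RNA-binding partner of IFIT1. The lists around the members fell with the library at 48 h. All 5 tested receptors, 7 of 7 JAK-STAT genes, 8 of 8 sensors and 14 of 17 other interferon-induced genes were lower on the rescaled scale in limma. EIF2AK2 and ADAR were tested in both the sensor list and the list of other genes. Of all tested genes 93.3% were lower, and the list medians were -1.38, -1.20, -1.41 and -1.26. Unnormalised, 1 receptor was higher and 1 lower, 3 and 1 of the JAK-STAT genes, 1 and 3 of the sensors, and 8 and 2 of the other genes. On that scale 18.1% of all tested genes were higher and 21.3% lower.

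**Figure D4:**
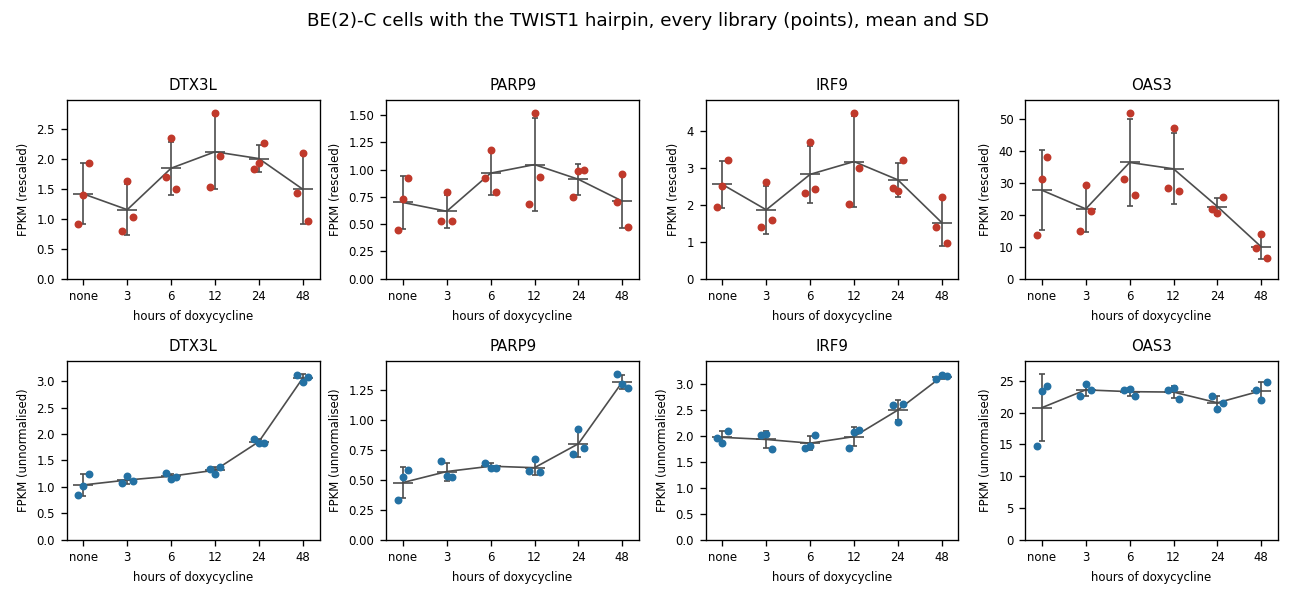
FPKM of DTX3L, PARP9, IRF9 and OAS3 in each BE(2)-C library (points) by hours of doxycycline, rescaled in the top row and unnormalised in the bottom row, with lines through the group means and bars for the SD. Unnormalised DTX3L, PARP9 and IRF9 are highest at 48 h, while rescaled OAS3 is lowest there.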

How the data were processed

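The 38 libraries analysed were 20 of SHEP-21N and 18 of BE(2)-C, and 11 more listed samples (BE(2)-C given DMSO, or JQ1 for 4, 8 or 24 h) were not analysed here. Per the labels' protocols, cells were counted, ERCC spike-ins went in at lysis, and libraries were stranded and poly(A)-selected. The submitters' processing notes name HISAT, Cufflinks 2.0.0 and hg19. For each model the authors deposited FPKM in an unnormalised table and in one they had rescaled by spike-ins, and no source at hand states how. A rescaled value near 0.1 FPKM does not show expression. Since FPKM hold no read counts, sequencing depth is unknown.

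Of 23713 entries, 92 spike-ins were left out, and genes with a mean of at least 1 unnormalised FPKM were tested (11867 in SHEP-21N, 11433 in BE(2)-C). limma 3.58.1 in R 4.3.3 (moderated variances with an intensity trend) was applied to log2(rescaled FPKM + 1), with all groups of an experiment in 1 fit. Adjusted p is the Benjamini-Hochberg value across the tested genes, with calls under 0.05. Some genes of the lists are not reported here. Fold changes on this scale understate the change of low genes. Tables and figures used Python 3.11.15, pandas 2.3.3, numpy 2.4.6 and matplotlib 3.10.9. The fit was tested on simulated data. The members, gene lists and tests were chosen with earlier results of these data known. Per-library values are given for members called at 24 h in SHEP-21N or 48 h in BE(2)-C (at most 12, by adjusted p), those called higher at any time and the 5 most abundant in each model. Column names gave the group, and their numbers only tell libraries apart. Alternatives were the unnormalised table, centring on the median, a pseudocount of 0.1, no filter on low values, a replicate block and leaving out each library.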

Additional observations from a re-analysis of the deposited data

Results flagged for a closer look

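In BE(2)-C, 7 members differed between their 48 h and 24 h groups on the rescaled scale by a limma test of the difference itself, over all 11433 tested genes. The log2 difference (48 h minus 24 h) was -1.28 for IFIT5 (adjusted p = 0.00306), -1.27 for SAMHD1 (0.00343), -1.22 for LGALS3BP (0.00354), -1.16 for OAS3 (0.00631), -1.08 for OAS1 (0.00404), -0.96 for IFI6 (0.00881) and -0.83 for IFI30 (0.0171). In the same test 92.3% of all tested genes were lower and 0.122% higher, and the all-gene median was -1.16, so these members lay close to the median. The calls of IFI6 and IFI30 were lost without 24 h library number 1 (limma adjusted p = 0.0576 and 0.061) or 48 h library number 2 (0.0735 and 0.128). Those of the other flagged members held without any 1 library. In each of these 7 genes the libraries at 48 h were lower than those at 24 h on the rescaled scale. The library medians of all tested genes were apart in the same way (log2 values of 2.09 to 3.15 at 48 h, against 3.66 to 3.97 at 24 h). The share of all tested genes without overlap was not counted. On the unnormalised scale none of the 7 was lower at 48 h in limma.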

How the results depend on the processing

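The scaling moved the counts most, and the cause was not tested. For SHEP-21N, the unnormalised table gave 3 members higher and 8 lower at 4 h, 7 and 7 at 6 h, 8 and 7 at 8 h, 14 and 1 at 16 h, 15 higher at 24 h and 15 higher between 24 and 8 h. Of all 11867 tested genes, unnormalised FPKM gave 1880 higher and 2142 lower at 4 h, and 3186 and 3538 at 6 h. At 8 h 2966 and 3471 genes were higher and lower, and at 16 h 2820 and 3260. Centring on the median gave 2 and 6, 7 and 7, 8 and 7, 14 and 1, then 15 higher and 16 higher. Of all tested genes it gave 1599 and 1619 at 4 h, 3217 and 2864 at 6 h, and 2857 and 2744 at 8 h. At 16 h it gave 2581 and 3013, at 24 h 3515 and 3823, and between 24 and 8 h 1424 and 1909. Without the filter on low values 1 was lower at 6 h, 2 were lower at 8 h, 10 higher at 16 h and 8 higher at 24 h in SHEP-21N. Of the 19003 genes then tested, 650 were lower at 6 h and 412 at 8 h. At 16 h 772 were higher, and at 24 h 931. In BE(2)-C without that filter 27 members were lower at 48 h against no doxycycline and 12 against 24 h. Of the 18606 genes then tested, 14254 and 11422 were lower. There, genes listed at 0 rescaled to at most 0.0682 to 0.0875 FPKM at 48 h, against 0.121 to 0.148 FPKM without doxycycline. Members without expression can therefore be called lower, and the count of 27 shows no fall in expression for them. For BE(2)-C, both the unnormalised table and centring gave 2 higher at 24 h. At 48 h against no doxycycline they gave 4 higher and 1 lower, and 9 higher and 0 lower, and against 24 h 1 higher and 0 lower, and 7 higher and 0 lower. Of all 11433 tested genes, centring gave 915 higher at 24 h, and 3496 higher and 2500 lower at 48 h against no doxycycline. Against 24 h the unnormalised scale gave 154 higher and 210 lower, and centring 1801 and 831. Whether the member counts differ from the all-gene counts given here was not tested. The centred count of members at 48 h against no doxycycline includes IFI35, ISG15, TRIM21 and IRF7, low genes whose changes the added 1 FPKM shrinks. A pseudocount of 0.1 moved no count by over 1.5 times: 5 members were higher at 16 h in place of 6, with the call of IRF7 lost (limma adjusted p = 0.0573), and in BE(2)-C 8 were lower between 48 and 24 h in place of 7. Leaving out the 48 h group, an alternative chosen after seeing the data, moved no count of the 4 earlier contrasts. Without the filter on low values IFITM1 lost its calls at 6 and 24 h (limma adjusted p = 0.0724 and 0.0664), BST2 its call at 6 h (0.0534) and TICAM1 its call at 24 h (0.0655).

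Leaving out 1 library at a time gave 0 to 1 higher and 0 to 3 lower at 6 h, 0 to 4 and 0 to 1 at 8 h, 1 to 9 higher at 16 h, 4 to 7 and 0 to 6 at 24 h, and 0 to 2 and 0 to 2 between 24 and 8 h, in SHEP-21N. In BE(2)-C it gave 8 to 13 lower at 48 h against no doxycycline and 5 to 11 against 24 h. Without 0 h library number 2, 1 member was higher at 16 h and 0 were lower at 24 h.

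Of single genes, none reversed in SHEP-21N, and in BE(2)-C 24 log2 changes reversed in all. At 48 h against no doxycycline the unnormalised table gave 0.28 for IFI6, 0.48 for IFI30, 0.19 for IFIT5, 0.20 for OAS3, 0.059 for IRF7, 0.017 for SAMHD1 and 0.16 for LGALS3BP. Centring gave 0.28 for IFI6, 0.57 for IFI30, 0.66 for IFI35, 0.14 for IFIT5, 0.59 for ISG15, 0.0093 for OAS1, 0.092 for OAS3, 0.89 for IRF7 and 0.60 for TRIM21. Centring came after 1 FPKM was added, which shrinks the falls of low genes and so raises their centred values. Unnormalised, IFI35 had -0.024, ISG15 -0.18 and TRIM21 -0.13 in that comparison. Against 24 h the unnormalised table gave 0.24 for IFI6, 0.28 for IFI30, 0.12 for OAS3 and 0.17 for LGALS3BP, and centring gave 0.22 for IFI6, 0.34 for IFI30, 0.10 for OAS1 and 0.015 for OAS3.

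Library numbers did not pair the samples: over the contrasts the correlation of same-numbered libraries ran from -0.235 to 0.181. With the number as a replicate block, 0 members were lower at 6 h in SHEP-21N and 13 were lower in BE(2)-C between 48 and 24 h, and the other counts stayed within 1.5 times. Calls lost with the block were those of IFITM1 at 6 h (limma adjusted p = 0.0806) and 24 h (0.0703), BST2 at 6 h (0.0526), IFIT3 (0.0528) and IRF7 (0.0784) at 16 h, and JAK1 (0.0637) and DDX60L (0.058) at 24 h.

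FPKM give no depth, so counting error is unknown, and genes under 1 FPKM were not tested.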
